A study of Mus musculus with 24 samples.

Results

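The 10 SOX family members Sox1, Sox2, Sox3, Sox4, Sox6, Sox9, Sox11, Sox15, Sox17 and Sox21 were followed through 9 RNA-seq libraries of mouse cells. They were taken by gene symbol from the 51912 genes of the count tables, because their proteins could act at SOX motifs in the cell types of the study, and all 10 had counts in every library. The libraries came from 3 groups with 3 replicates each. ESCs were wild-type TC-1 mouse embryonic stem cells (strain C57BL/6 X 129S5) grown with LIF. NPs were neuronal progenitors derived from wild-type ESCs of the same strain, as cellular aggregates that received retinoic acid in the later days. TET TKO ESCs carried a knockout of TET1, TET2 and TET3 (strain C57BL/6 X 129/sv), so that genotype, strain and sequencing depth cannot be told apart in that comparison. Whether the TET TKO ESCs descend from 1 clone is not given in the sources used here. The study's methods call the RNA-seq replicates biological. The GEO labels number them but do not say whether they came from separate cultures. The p-values measure the spread between these libraries.

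SOX proteins bind in the minor groove of DNA through an HMG box and bend it, and most of them act together with a partner factor bound next to them. In ESCs, SOX2 works with OCT4 to keep the cells pluripotent. In the developing nervous system, the SOXB1 proteins SOX1, SOX2 and SOX3 hold cells in a dividing progenitor state, SOXB2 proteins oppose them, and the SOXC proteins SOX4 and SOX11 switch on neuronal genes.

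The members differed in the sequence around their starts. RefSeq gave a window from 250 bases before to 50 after a start (GRCm38.p6) for 7 of the 10 members, namely Sox1, Sox2, Sox4, Sox6, Sox11, Sox15 and Sox21. The windows are shown for the pair of members that were lower in NPs and for a member of the SOXC group that was higher. In each line CpG dinucleotides are in capitals. The Sox2 window is on chr3:34649745-34650044 (+ strand), the Sox15 window on chr11:69654787-69655086 (+ strand) and the Sox11 window on chr12:27342669-27342968 (- strand).
Sox2: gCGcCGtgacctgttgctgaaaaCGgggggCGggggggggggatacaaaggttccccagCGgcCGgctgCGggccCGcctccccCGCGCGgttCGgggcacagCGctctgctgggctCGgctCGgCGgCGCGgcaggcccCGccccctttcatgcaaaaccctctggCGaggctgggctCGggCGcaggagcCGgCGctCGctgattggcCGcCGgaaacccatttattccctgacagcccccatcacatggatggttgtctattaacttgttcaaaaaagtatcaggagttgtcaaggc
Sox15: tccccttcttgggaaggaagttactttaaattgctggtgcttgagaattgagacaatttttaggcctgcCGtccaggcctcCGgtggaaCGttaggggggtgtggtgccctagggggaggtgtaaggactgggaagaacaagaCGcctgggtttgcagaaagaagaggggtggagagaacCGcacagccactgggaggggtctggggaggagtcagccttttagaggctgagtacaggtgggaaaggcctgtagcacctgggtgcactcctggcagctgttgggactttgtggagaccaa
Sox11: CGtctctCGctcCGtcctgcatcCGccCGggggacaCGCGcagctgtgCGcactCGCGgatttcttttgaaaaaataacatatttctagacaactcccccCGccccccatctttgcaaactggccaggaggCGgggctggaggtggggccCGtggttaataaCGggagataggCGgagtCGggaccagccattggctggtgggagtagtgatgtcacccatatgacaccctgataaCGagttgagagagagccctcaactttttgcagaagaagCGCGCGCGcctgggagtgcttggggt

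The Sox2 window held 27 CpGs, the Sox11 window 21 and the Sox15 window 5. Over 32851 RefSeq windows of this length the median was 7 CpGs, with quartiles of 3 and 20, so Sox2 and Sox11 lay above the upper quartile and Sox15 lay below the median. Sox1 had 37 CpGs, Sox21 had 22 and Sox4 had 12, and the 6 windows of Sox6 had 2 to 13. The RefSeq starts of Sox2, Sox15 and Sox11 lie 410, 277 and 144 bases before the gene starts of the Ensembl models used for counting. The SOX core motifs ACAAAG and ACAATG were searched on both strands. The Sox2 and Sox15 windows each held ACAAAG once and the Sox11 window held neither, while 18.7% of all windows held ACAAAG and 12.6% held ACAATG. Of the 6 Sox6 windows 5 held ACAAAG, and either motif was found in 7 of the 12 windows of the members and in 28.6% of all windows. As 5 of those 7 windows belong to Sox6, they do not stand for separate genes. These matches describe letters and not binding.

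The counts of the study were turned into RPKM, the number of reads scaled to the exon length of the gene and to the size of the library, so that genes of different length could be compared. ESC libraries held 20570050 to 23976914 counts, NP libraries 20519702 to 22132988 and TET TKO libraries 80704741 to 93210102. The targeted genes were lower in TET TKO ESCs but not absent, with 13.5 ± 2.38 RPKM (SD, n = 3) for Tet1 against 65.1 ± 3.92 in ESCs, 2.48 ± 0.197 against 19.0 ± 2.47 for Tet2, and 0.551 ± 0.0724 against 0.715 ± 0.0744 for Tet3. All 9 neural progenitor markers were called higher in NPs than in ESCs, with a summed level of 217 to 380 RPKM against 10.1 to 12.6. Each ESC library had 3 of the 9 at 1 RPKM or more, and a marker tested only through NPs could only be called higher. All 8 pluripotency markers were called lower, with 7.61 to 26.4 RPKM against 2452 to 2530. Markers of other cells were present in NPs as well. The summed level of 7 neuron markers was 96.1 to 215 RPKM in NPs (123 to 139 in ESCs), and 5 were called higher and 1 lower. In every ESC library 4 of these 7 reached 1 RPKM, and those tested only through NPs could only be called higher. Of all genes tested, 12.4% were called higher and 9.98% lower.

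In ESCs, Sox2 stood far above the other members, followed by Sox15. Sox2 reached 226 ± 15.98 RPKM and Sox15, a SOXG gene known from pluripotent cells and muscle precursors, reached 26.3 ± 5.43. Sox4 (3.00 ± 0.372), Sox3 (2.14 ± 0.466), Sox21 (1.48 ± 0.150) and Sox11 (1.44 ± 0.169) followed, and Sox1 was at 0.612 ± 0.131. Sox17, Sox9 and Sox6 were at 0.119 RPKM or less. In this order the neighbouring pairs Sox3 and Sox21, Sox21 and Sox11, Sox17 and Sox9, and Sox9 and Sox6 had overlapping library ranges, and all other neighbours were separate. A mean log2(1 + RPKM) of 1 or more, which the study used as the limit for high expression, was reached by 6 members in ESCs.

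In NPs the order was different and had no single leading gene. Sox3 (61.5 ± 27.1 RPKM), Sox2 (54.0 ± 7.40), Sox11 (49.4 ± 12.3) and Sox4 (36.0 ± 11.4) were at the top, with ranges that overlapped from each gene to the next. Sox9 (20.6 ± 2.90) and Sox1 (11.9 ± 4.21) followed, each separate from its neighbours. Sox21 (4.96 ± 2.75), Sox17 (3.83 ± 0.917), Sox6 (1.72 ± 0.292) and Sox15 (0.695 ± 0.888) were lowest, where Sox21 overlapped Sox17 and Sox6 overlapped Sox15, and 9 of the 10 members, all but Sox15, passed the limit for high expression. The place of Sox4 in this order depends on the gene model. Of its exon bases, 54.6% are shared with the gene Gm26735 on the other strand, and reads that overlap both genes are not counted. Counted over the unshared bases alone, an alternative chosen after the data had been seen, the mean of Sox4 was 79.1 RPKM in NPs, above Sox3, and 6.61 in ESCs.

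**Figure D1:**
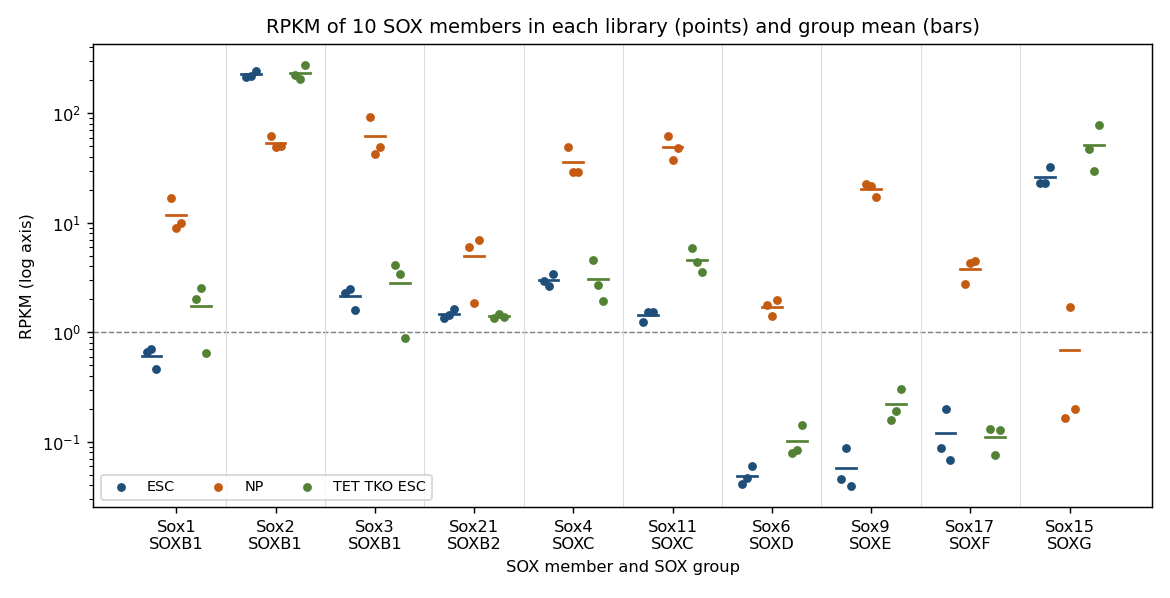
RPKM on a log axis of the 10 members in each of the 3 ESC, 3 NP and 3 TET TKO ESC libraries (points), with the group means as bars and a dashed line at 1 RPKM. Sox2 and Sox15 are lower in NPs than in ESCs, the other 8 members are higher, and the TET TKO points overlap the ESC points for 7 members.

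The first comparison, NPs against ESCs, asked which SOX genes change when ESCs become neuronal progenitors. Of the 10 members, 7 were called higher (Sox1, Sox3, Sox4, Sox6, Sox9, Sox11 and Sox17) and 2 lower (Sox2 and Sox15) by edgeR's quasi-likelihood test, for which the p adjusted by Benjamini-Hochberg had to lie under 0.001 and the change had to reach 3-fold. Over the 15197 genes tested, 22.3% were called, 12.4% higher and 9.98% lower. Sox21 rose at an adjusted p under 0.05, as 64.1% of the genes tested changed, but was not called. In all 10 members the 3 NP libraries were separate from the 3 ESC libraries, which was so for 71.9% of the genes tested. The median log2 fold change was 4.55 over the members and 0.03 over all genes tested. Sox1, Sox6, Sox9 and Sox17 entered the test only through their values in NPs, so their direction was fixed by the filter. Since RNA was taken from bulk cultures, a change in the number of cells of a type and a change in the RNA per cell cannot be told apart.

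Among the SOXB1 genes, Sox2 fell while Sox1 and Sox3 rose. Sox2 (ENSMUSG00000074637, a single exon at chr3:34650405-34652461) had 214, 220 and 245 RPKM in ESCs and 62.5, 49.2 and 50.3 in NPs. Every NP library was below every ESC library, yet Sox2 remained among the 4 highest members of NPs. It was 4.23-fold lower (log2 fold change -2.08 ± 0.13 SE, edgeR adjusted p = 4.46e-06). Sox2 lies inside the span of the long noncoding gene Sox2ot without shared exon bases, and Sox2ot was at 0.298 to 0.450 RPKM in ESCs and 0.916 to 1.79 in NPs.

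Sox3 (ENSMUSG00000045179, a single exon at chrX:60891366-60893430), which is expressed throughout the early neural plate, had 2.30, 2.50 and 1.62 RPKM in ESCs and 92.6, 42.7 and 49.3 in NPs. The groups were far apart, and NP replicate 1 was the highest library. The rise was 28.5-fold (log2 4.83 ± 0.35, edgeR adjusted p = 9.60e-06). Sox1 (ENSMUSG00000096014, a single exon at chr8:12395295-12400126), a marker of committed neural cells, had 0.661, 0.711 and 0.463 RPKM in ESCs and 16.7, 8.98 and 9.90 in NPs. It was low in every ESC library, with 55 to 75 counts, and again highest in NP replicate 1. The fold change was 19.2 (log2 4.26 ± 0.30, edgeR adjusted p = 9.10e-06). Sox1ot, whose span includes Sox1, had 4 to 8 counts in ESCs and 161 to 683 in NPs, with the most in NP replicate 1.

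The SOXB2 gene Sox21 (ENSMUSG00000061517, a single exon at chr14:118233232-118237030), whose protein counteracts SOXB1 activity, had 1.36, 1.43 and 1.65 RPKM in ESCs and 6.02, 1.84 and 7.02 in NPs. The groups did not overlap, but NP replicate 2 lay close to the ESC libraries. The rise of 3.33-fold (log2 1.74 ± 0.45) had an edgeR adjusted p of 0.00877, past 0.05 but not past 0.001. Without NP replicate 2 it was called (log2 2.11, edgeR adjusted p = 5.63e-05), which made 8 members higher and 2 lower. It was also called by DESeq2 (adjusted p = 0.000343) and with no filter on low counts (edgeR adjusted p = 5.87e-05). Of the exon bases of Sox21, 18.8% are shared with Gm4675 on the other strand, which had 6 to 7 counts in ESCs and 11 to 32 in NPs.

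Both SOXC members rose. Sox11 (ENSMUSG00000063632, a single exon at chr12:27334264-27342574) had 1.24, 1.55 and 1.52 RPKM in ESCs and 62.1, 37.5 and 48.5 in NPs. With 7573 to 10999 counts it had the most reads of any member in NPs, although the gene is also long for the family. It was 34.0-fold higher (log2 5.09 ± 0.22, edgeR adjusted p = 9.33e-07). Sox4 (ENSMUSG00000076431, a single exon at chr13:28948919-28953713) had 2.95, 2.66 and 3.40 RPKM in ESCs and 49.2, 29.3 and 29.4 in NPs. The NP libraries were all above the ESC libraries, with replicate 1 the highest. The fold change was 11.8 (log2 3.57 ± 0.23, edgeR adjusted p = 6.08e-06). The shared exon bases of Sox4 lower its level in all groups, and Gm26735 itself had 0 counts in every library.

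Sox9, Sox17 and Sox6 were nearly silent in ESCs. Sox9 (ENSMUSG00000000567, 3 exons at chr11:112782224-112787760), a SOXE gene of glial, crest and cartilage precursors and of neural stem cells, had 4, 8 and 4 counts in ESCs and 1998, 2189 and 1654 in NPs. All NP libraries were alike, at 17.3 to 22.7 RPKM. Its rise was the largest of the members, at 348-fold with a 95% interval of 228 to 531 (log2 8.44 ± 0.27, edgeR adjusted p = 3.33e-07). Of 7 neural crest markers, Pax3 (0.0125 RPKM in ESCs and 9.44 in NPs) and Tfap2b (0 counts in ESCs and 4.02 RPKM in NPs) were called higher in NPs, both tested only through NPs. Foxd3, which is also a gene of pluripotent cells, was called lower (20.3 and 2.02 RPKM) and held much of the summed level in ESCs. That level was 20.8 to 26.5 RPKM in NPs against 33.5 to 40.4 in ESCs. Sox10, the SOXE gene that defines migrating crest and glia, had 2 to 24 counts in NPs. The part of crest cells in the Sox9 signal was not tested.

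Sox17 (ENSMUSG00000025902, chr1:4490931-4497354), a SOXF gene of endoderm and vessels, had 9, 21 and 8 counts in ESCs and 282, 495 and 491 in NPs. These correspond to 2.77, 4.27 and 4.44 RPKM in NPs, with replicate 1 the lowest, and the groups were well separated. It rose 31.8-fold (log2 4.99 ± 0.42, edgeR adjusted p = 2.01e-05). Without ESC replicate 2, the ESC library with 21 counts, the log2 fold change was 5.58. Of 7 endoderm markers, 5 were tested and 3 were called higher in NPs (Foxa2, Ttr and Gata6), and their summed level was 19.7 to 22.4 RPKM against 1.79 to 3.35 in ESCs, with no marker at 0 in NPs. These 3 genes were tested only through their NP values, so they could only be called higher, as 12.4% of all genes tested were. The part of endoderm-like cells in the Sox17 signal was not tested. Sox6 (ENSMUSG00000051910, chr7:115470872-116038796), a SOXD gene without a transactivation domain that acts in neural and cartilage precursors, had 13, 15 and 22 counts in ESCs and 558, 507 and 682 in NPs. The NP libraries were alike, at 1.41 to 1.98 RPKM. The fold change was 34.2 (log2 5.10 ± 0.26, edgeR adjusted p = 1.90e-06), and its exon model of 14832 bases is the longest among the members.

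Sox15 (ENSMUSG00000041287, 2 exons at chr11:69655314-69656727) had 23.3, 23.1 and 32.6 RPKM in ESCs and 0.164, 1.72 and 0.200 in NPs. NP replicate 2 held 36 counts, and the other NP libraries held 3 and 4. Sox15 was 37.1-fold lower in NPs (log2 -5.21 ± 0.68, edgeR adjusted p = 0.000216). Without ESC replicate 3 the edgeR adjusted p was 0.00147 and the call was lost, with a log2 fold change of -5.05. Without NP replicate 2 the log2 fold change was -7.14. NP replicate 2 also had the highest summed level of the pluripotency markers, at 26.4 RPKM against 10.97 and 7.61 in replicates 1 and 3, and the part of remaining pluripotent cells in its Sox15 reads was not tested. Sox15 shares 31 exon bases with Mpdu1 on the other strand, which had 1090 to 1636 counts in NPs.

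**Figure D2:**
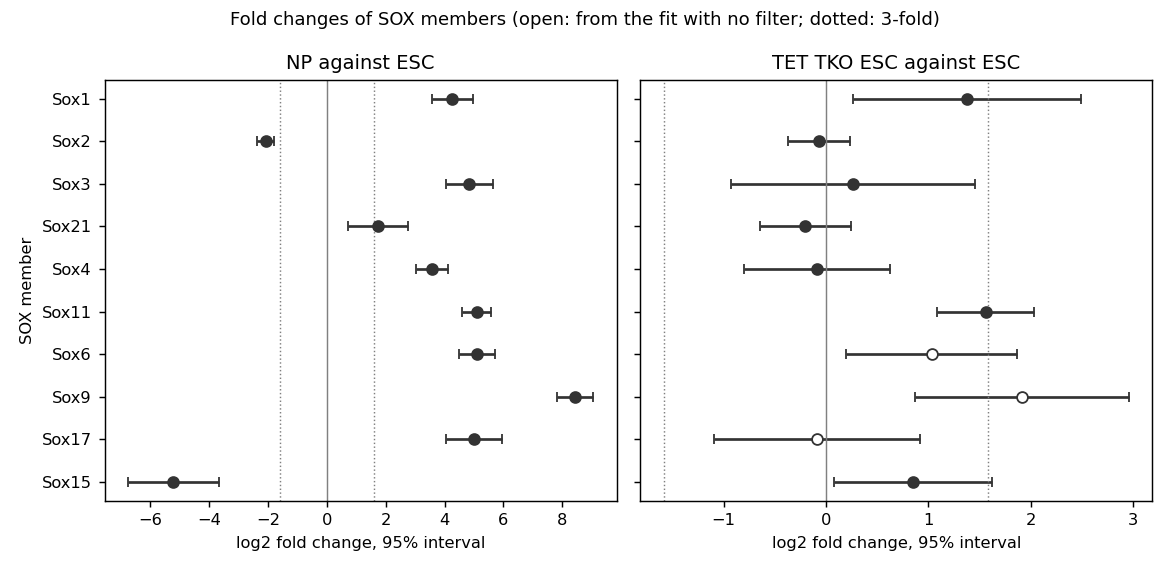
Log2 fold change with its 95% interval for the 10 members in NPs against ESCs (left) and TET TKO ESCs against ESCs (right), on different scales, with dotted lines at 3-fold and open circles for Sox6, Sox9 and Sox17, taken from the fit with no filter. In NPs the intervals of 8 members lie above 0 and those of Sox2 and Sox15 below, while in TET TKO ESCs the intervals of Sox2, Sox3, Sox4, Sox17 and Sox21 span 0.

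The second comparison, TET TKO ESCs against ESCs, asked whether the SOX genes differed in cells without TET proteins. Both comparisons use the same ESC libraries. Of the 10 members, 7 reached 1 RPKM in some library and were tested, and Sox1 passed this filter only through TET TKO ESCs. With edgeR, 0 of the 7 were called, against 2.14% of the 13939 genes tested (0.847% higher and 1.29% lower). DESeq2 also called 0, and 3 of the 7 had an unadjusted edgeR p under 0.05, as did at least 33.6% of all genes tested. At an adjusted p under 0.05 with no limit on the fold change, Sox11 was the only member that differed in this fit, against 33.6% of all genes tested (17.6% higher and 16.0% lower). With no filter 4 members were higher at that limit, namely Sox1, Sox9, Sox11 and Sox15. The share of all genes at that limit was not worked out for the fit with no filter. Sox6, Sox9 and Sox11 were higher in every TET TKO library than in every ESC library, and the ranges of the other 7 overlapped. Over all genes tested 51.8% were separate, 32.2% higher and 19.6% lower. The median log2 fold change was 0.26 over the 7 members and 0.02 over all genes tested. Scaling by library size alone in place of TMM moved the median of all genes by -0.14 on the log2 scale in this comparison.

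Sox11 had 5.88, 4.34 and 3.59 RPKM in TET TKO ESCs, against 1.24 to 1.55 in ESCs. All 3 libraries were above the ESC range, and all stayed far below the NP libraries. The fold change was 2.95 with a 95% interval of 2.12 to 4.10 (log2 1.56 ± 0.20, edgeR adjusted p = 0.00157), which just missed both limits of the call. Over the alternatives the log2 fold change of Sox11 ranged from 1.34 to 1.71. It was called with no filter (edgeR adjusted p = 1.72e-06) and without TET TKO replicate 3 (0.000925).

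Sox2 had 224, 204 and 276 RPKM in TET TKO ESCs, which overlapped the ESC values on both sides. The log2 fold change was -0.07 (95% interval -0.37 to 0.24, edgeR adjusted p = 0.725), which is an interval of 0.775 to 1.18 for the fold change itself. Sox15 had 47.0, 29.8 and 77.4 RPKM. The lowest of these lay within the ESC range of 23.1 to 32.6 and the others were above it. The fold change of 1.80 (log2 0.85 ± 0.33) had an edgeR adjusted p of 0.0851. The adjusted p was 0.0299 with DESeq2, 0.0145 with the replicate block, 0.00632 with no filter and 0.0153 without TET TKO replicate 2 (edgeR in all settings but the first), and up to 0.236 in the other settings.

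Sox1 had 2.00, 2.54 and 0.648 RPKM in TET TKO ESCs. Replicates 1 and 2 were above the ESC libraries and replicate 3 was among them. The fold change was 2.60 (log2 1.38 ± 0.48, edgeR adjusted p = 0.0599), and the mean passed the limit for high expression in TET TKO ESCs but not in ESCs. The adjusted p of Sox1 was 0.0143 with DESeq2 and, with edgeR, 0.0162 with the replicate block, 0.0431 with all 3 groups in the fit, 0.00548 with no filter and 0.00282 without TET TKO replicate 3, and up to 0.166 in the other settings. Sox3 showed a like split, with 4.10, 3.39 and 0.893 RPKM, of which replicate 3 was below every ESC library. Its log2 fold change was 0.26 with a 95% interval of -0.92 to 1.45.

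Sox4 had 4.57, 2.71 and 1.91 RPKM in TET TKO ESCs, on both sides of the ESC range, and a log2 fold change of -0.09 (95% interval -0.80 to 0.62). Sox21 had 1.35, 1.46 and 1.38 RPKM, the smallest ratio of highest to lowest library (1.08) of any member there. Its log2 fold change was -0.20 (-0.65 to 0.25). Both intervals include 0, and that of Sox4 reaches up to a 1.54-fold rise.

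The 3 members under the filter stayed low. Sox9 had 51, 57 and 109 counts in TET TKO ESCs, or 0.160, 0.193 and 0.306 RPKM, against 0.0393 to 0.0886 in ESCs. In the edgeR fit with no filter it was 3.78-fold higher (log2 1.92 ± 0.50, adjusted p = 0.00794). Sox6 had 0.0787, 0.0840 and 0.143 RPKM, with a log2 fold change of 1.03 ± 0.40 (adjusted p = 0.0794 in the same edgeR fit). Sox17 had 0.130, 0.0763 and 0.129 RPKM, within the ESC range, with a log2 fold change of -0.09 ± 0.49. The order of levels in TET TKO ESCs began with Sox2 and Sox15 as in ESCs. The ranges of Sox11, Sox4, Sox3, Sox1 and Sox21 overlapped from each gene to the next, those of Sox17 and Sox6 overlapped as well, and 7 members passed the limit for high expression.

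The composition of the transcripts of the 10 members was also compared, as the share of each member in the summed RPKM of all 10. The sum itself was 246 to 286 RPKM for ESCs, 199 to 316 for NPs and 249 to 362 for the TET TKO libraries, so that the groups overlapped. The SOXB1 genes made up 87.7% ± 1.23 of the sum for ESCs, 51.7% ± 2.22 for NPs and 80.2% ± 3.99 for TET TKO ESCs. The 3 libraries of each other group lay below the 3 ESC libraries, with an exact two-sided permutation p of 0.1 for either comparison, the smallest that 3 against 3 libraries can give. Sox2 was 98.8% ± 0.324 of the SOXB1 sum in ESCs and 98.0% ± 1.26 in TET TKO ESCs, but 43.7% ± 6.48 in NPs, where Sox3 had 24.4% and Sox2 had 22.5% of the sum of all 10 members. The SOXC members Sox4 and Sox11 together had 1.70% ± 0.0277 of the sum of the 10 members in ESCs and 34.8% ± 1.07 in NPs. That sum leaves out the SOXC gene Sox12, at 16.8 to 17.7 RPKM in ESCs and 23.8 to 43.7 in NPs. It also leaves out Sox13, at 15.1 to 16.7 RPKM in ESCs. The shares therefore hold for the 10 members and not for whole SOX groups. Sox15 had 9.99% ± 1.22 in ESCs and 0.336% ± 0.459 in NPs (0.0718% without NP replicate 2), and reached 16.5% ± 4.70 in TET TKO ESCs. The shares depend on the division by length. In CPM, which is scaled to library size but not to length, the SOXB1 share of NPs was 28.5% and Sox11 alone had 39.9%.

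**Figure D3:**
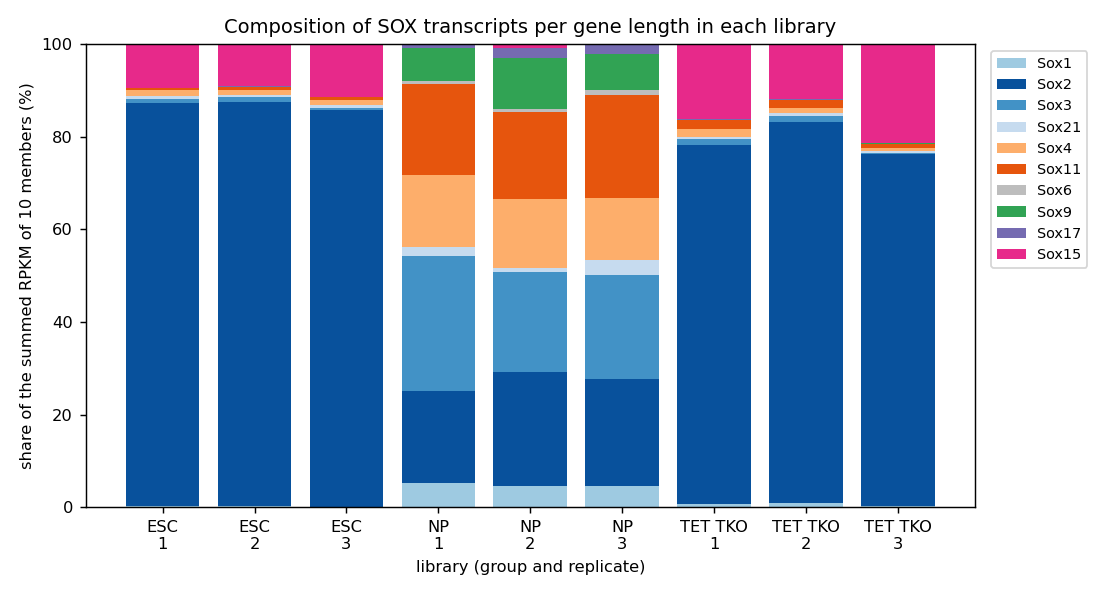
Stacked bars of the share (%) of each member in the summed RPKM of the 10 members, for each of the 9 libraries. Sox2 fills 76.2% to 87.2% of every ESC and TET TKO library and 19.8% to 24.8% of the NP libraries, where Sox3, Sox11, Sox4 and Sox9 take up most of the rest.

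Replicates of a group did not always carry the members at the same level. In NPs, replicate 1 had 2.01 times the mean of the other libraries for Sox3, 1.77 times for Sox1 and 1.67 times for Sox4, while replicate 2 had 0.282 times the mean of the others for Sox21 and 9.45 times for Sox15. In TET TKO ESCs, replicate 3 had 0.238 times the mean of the others for Sox3, 0.285 times for Sox1 and 0.526 times for Sox4, and 2.02 times for Sox15. Sox11 was also lower there (0.702 times), while Sox6 (1.76 times), Sox9 (1.73 times) and Sox2 (1.29 times) were higher like Sox15. TET TKO replicate 3 also had the lowest summed level of neuron markers among the TET TKO ESCs (50.1 RPKM against 72.9 and 95.1) and the highest of pluripotency markers (3070 against 2503 and 2303), and what these have to do with the SOX values was not tested.

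**Figure D4:**
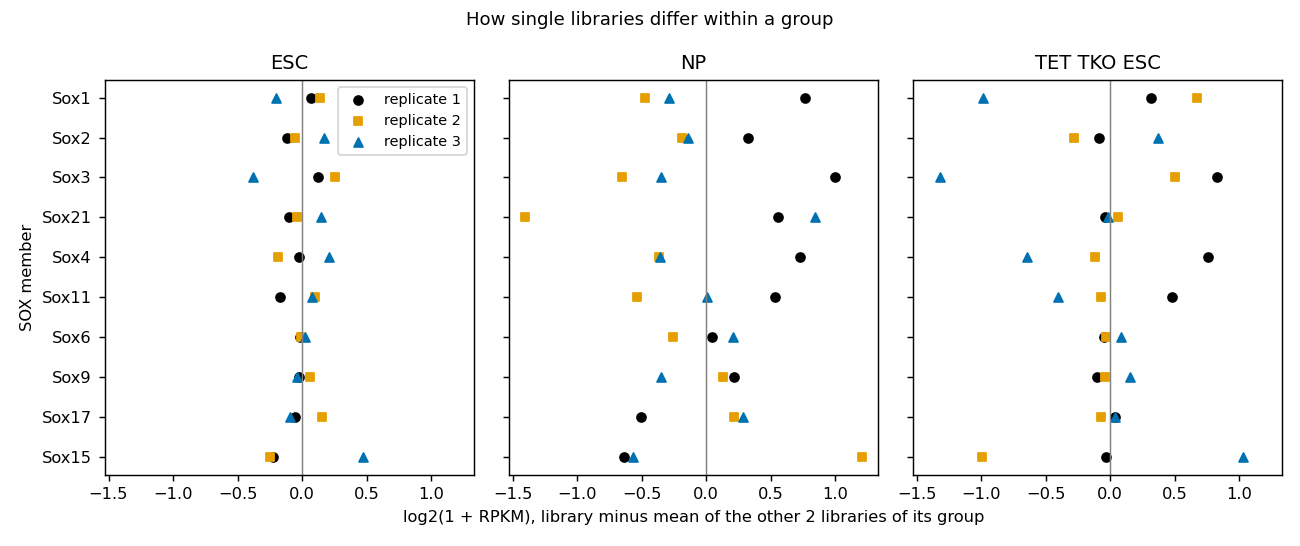
Difference in log2(1 + RPKM) between each library and the mean of the other 2 libraries of its group, for the 10 members in ESCs, NPs and TET TKO ESCs. ESC libraries stay close to 0, NP replicate 2 stands apart for Sox15 and Sox21, and TET TKO replicate 3 stands apart for Sox1 and Sox3. For Sox15, TET TKO replicates 2 and 3 lie about equally far from 0 on opposite sides.

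Genes known as targets and partners of SOX proteins were read from the same fits. These lists share genes with each other and with the marker lists above, so their counts are not separate results. Fgf4 and Pou5f1 are both ESC targets and pluripotency markers, and Pou5f1 is a partner factor as well. Nes and Fabp7 are also neural progenitor markers, Dcx is also a neuron marker and Foxa2 is also an endoderm marker. Of 8 OCT4 and SOX2 target genes of ESCs, all were called lower in NPs, among them Fgf4, a growth factor with a SOX2 and OCT4 enhancer (log2 -8.80 ± 0.32, edgeR adjusted p = 4.37e-07), and Lefty1, a Nodal antagonist (log2 -7.42 ± 0.35, adjusted p = 1.30e-06). Their summed level was 1699 to 1857 RPKM in ESCs and 1586 to 1637 in TET TKO ESCs but 10.96 to 31.3 in NPs. These genes fell much further than Sox2 itself. Their median log2 fold change was -7.26, beside -2.08 for Sox2. Of all genes tested in NPs, 9.98% were called lower. In TET TKO ESCs, 1 of the 8 was lower at an adjusted p under 0.05, against 16.0% of all genes tested.

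Of 5 SOXB1 and SOXC target genes of neural cells, 3 were called higher in NPs, as 12.4% of all genes tested were. Of these 3, Dcx and Fabp7 were tested only through NPs. Dcx, a microtubule protein of young neurons, was at 0.00231 ± 0.00202 RPKM in ESCs, close to 0, and 7.68 ± 2.62 in NPs (edgeR adjusted p = 1.23e-06). Nes, which encodes the filament nestin of neural stem cells, rose from 4.02 to 74.2 RPKM (log2 4.19 ± 0.20, edgeR adjusted p = 1.51e-06), and Fabp7 was the third gene. Of 9 SOXE targets, 5 were tested in NPs, 2 were called higher and 1 lower (12.4% and 9.98% of all genes tested). Col2a1, the main collagen of cartilage, was 63.4 ± 10.5 RPKM in NPs and 3.69 ± 0.423 in ESCs, and Ret, tested only through NPs, was called higher as well. Acan, the cartilage proteoglycan, fell (log2 -4.38 ± 0.50, edgeR adjusted p = 0.000110). Of 6 SOXF targets of endoderm, 5 were called higher in NPs, among them Foxa2 and Foxa1, both tested only through NPs, and Cxcr4. Foxa2 rose from 0.167 to 10.1 RPKM (log2 5.91 ± 0.42, edgeR adjusted p = 8.84e-06). Foxa1 and Foxa2 are also active in the floor plate of the neural tube, and which cells carried these transcripts was not tested.

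Of 12 partner factors, 4 were called higher and 5 lower in NPs (12.4% and 9.98% of all genes tested). All 12 were tested, and 8 reached 1 RPKM in each ESC library. A factor tested only through NPs could only be called higher. Pou5f1, which encodes OCT4, fell from 393 to 1.09 RPKM (log2 -8.50 ± 0.42, edgeR adjusted p = 1.53e-06). Pou3f2 and Pou3f3, which encode the neural POU factors BRN2 and BRN1, rose from 0.0507 to 21.3 and from 0.0710 to 17.8 RPKM (log2 8.69 ± 0.42 and 7.96 ± 0.39, edgeR adjusted p = 1.41e-06 and 1.58e-06). Both passed the filter only through NPs, which fixed their direction. In TET TKO ESCs, 8 of the 12 were tested, and 1 was higher and 3 lower at an adjusted p under 0.05 (33.6% of all genes tested).

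**Figure D5:**
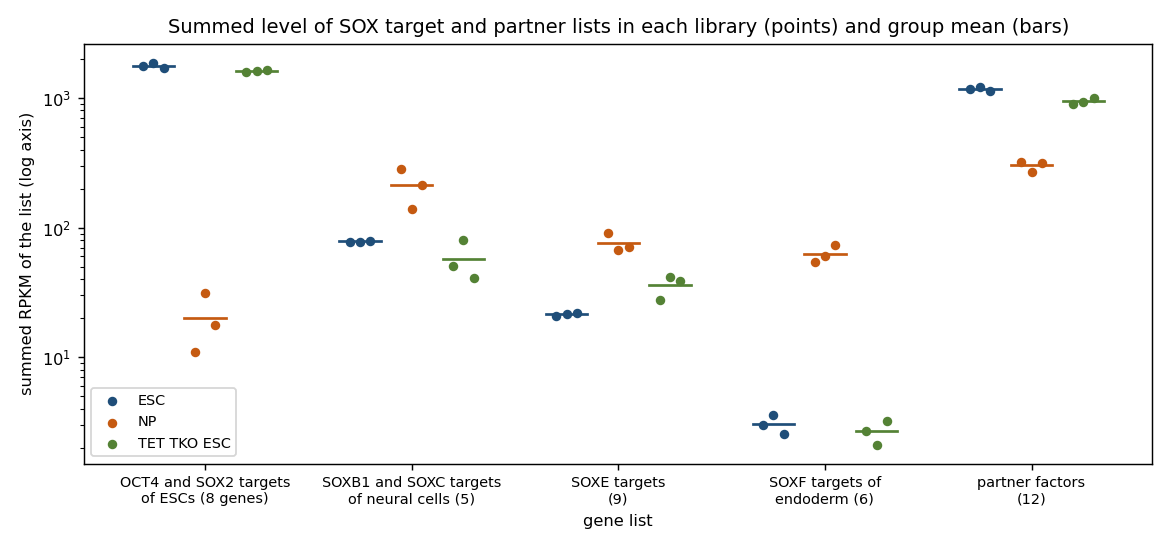
Summed RPKM on a log axis of 4 lists of SOX target genes and of the partner factors, in each library (points), with group means as bars. The OCT4 and SOX2 targets lie at 1699 to 1857 RPKM in ESCs and 10.96 to 31.3 in NPs, and the SOXF targets at 2.56 to 3.58 and 54.5 to 73.2.

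Another 10 SOX genes of the mouse were read from the same fits. In NPs 3 of them passed the filter, and 2 of these were higher at an adjusted p under 0.05 without reaching 3-fold, Sox12 (log2 0.88 ± 0.20, edgeR adjusted p = 0.00472) and Sox7 (log2 1.55 ± 0.41, edgeR adjusted p = 0.00972). Sox7 was at 0.271 to 0.514 RPKM in ESCs and passed the filter only through NPs, which fixed its direction. At an adjusted p under 0.05, 32.5% of all genes tested were higher. Sox12, the third SOXC gene, was at 17.2 ± 0.447 RPKM in ESCs and 32.1 ± 10.3 in NPs, and so it was the highest SOXC gene of ESCs. Sox13, a SOXD gene, was at 15.7 ± 0.850 RPKM in ESCs and 20.3 ± 4.85 in NPs. Both lay above all members in ESCs other than Sox2 and Sox15. Sox5, the SOXD gene closest to Sox6, stayed under the filter with 3 to 14 counts in ESCs and 150 to 185 in NPs, a 20.4-fold rise in the edgeR fit with no filter (adjusted p = 7.93e-10). Sry had 0 counts in every library.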

How the data were processed

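RNA was sequenced in 9 libraries of mouse cells. The authors trimmed single-end reads, aligned them with STAR 2.6.1b to GRCm38 and deposited raw counts per gene from featureCounts 1.6.2 with Ensembl 89 models, without strand, so reads of a gene and of an antisense partner cannot be told apart. Gene lengths were taken from the deposited tables. Reads overlapping exons of more than 1 gene were not counted.

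RPKM was computed with TMM library sizes in edgeR 4.0.16 (R 4.3.3). Groups were compared in pairs by edgeR's quasi-likelihood test over genes that reached 1 RPKM in any library of the pair, with Benjamini-Hochberg adjustment over all of them and without covariates. Calls need an adjusted p under 0.001 and a 3-fold change, the limits in the study's methods. The methods speak of discarding genes above 1 RPKM, which was read as below. DESeq2 1.42.0 was an alternative. Other steps used Python 3.11.15 with pandas 2.3.3, scipy 1.17.1 and matplotlib 3.10.9. SOX gene sequences were taken from RefSeq (GRCm38.p6).

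The text names all 10 members, and of other lists at most the 4 called genes with the largest fold change. A few genes that these rules name are not reported here. The members, the lists of targets, partners and cell type markers, and the tests were chosen with earlier results of these data known. On simulated counts the test called 80.7% of genes changed 8-fold, 58.3% of those changed 4-fold and 0% of those changed 2-fold in NPs against ESCs (91.3%, 63.1% and 0% in TET TKO ESCs), and 0 unchanged genes. No replicate pair agreed within sampling noise. Alternatives were library sizes alone, DESeq2, no filter, at least 10 counts in every library, an adjusted p under 0.05, all 3 groups in the fit, a replicate block, leaving out each library, thinned TET TKO counts, CPM, and lengths without shared exon bases. The methylation files were not used here.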

Additional observations from a re-analysis of the deposited data

How the results depend on the processing

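The 3396 genes called in NPs against ESCs became 5281 with no filter, 2262 with at least 10 counts in every library and 9738 at an adjusted p under 0.05. They ranged from 2471 to 3384 when a library was left out, and numbered 3359 with the replicate block. The 298 genes of TET TKO ESCs became 910 with DESeq2, 1263 with no filter, 589 with the replicate block and 4677 at an adjusted p under 0.05. They ranged from 50 to 294 when a library was left out, with 50, 58 and 70 without ESC replicates 1, 2 and 3, and 92 and 165 without TET TKO replicates 1 and 2, where fewer samples are fitted. Whether equal numbers pair the samples was not settled. Same-numbered libraries correlated at -0.157 to 0.013 in NPs against ESCs, and different-numbered ones at -0.114 to 0.132. In TET TKO ESCs against ESCs these were -0.094 to 0.355 and -0.411 to 0.201. With the block 7 members were higher and 2 lower in NPs as before, and 0 were called in TET TKO ESCs. Of 225 values of members in both comparisons under all settings, 211 kept their direction and side of the limit. In TET TKO ESCs the direction reversed for Sox2 with no filter (log2 0.042), for Sox4 with no filter (0.019), and when a TET TKO library was left out, for Sox2 (-0.20 to 0.042 over these fits), Sox3 (-0.12 to 0.69) and Sox4 (-0.50 to 0.16), none of them past the limit in any fit. With at least 10 counts in every library, Sox9, Sox15 and Sox17 left the NP comparison. The SOXB1 share was 89.4% of ESCs and 28.5% of NPs in CPM and 86.0% and 43.8% with lengths without shared exon bases. Leaving out a library gave 87.2% to 88.4% in ESCs, 50.5% to 52.5% in NPs and 78.0% to 82.0% in TET TKO ESCs. The number of highly expressed members moved by at most 1 under these settings. Depth limits the ESC values of Sox6, Sox9 and Sox17, which rest on 4 to 22 counts per library.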

Other observations

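The genes with the profile most like that of a member were found by the root-mean-square distance between centred log2(1 + RPKM) values over the 9 libraries, among 15505 genes that reached 1 RPKM in some library. For Sox2 they were Zswim1 (distance 0.126), Msh6, a mismatch repair gene (0.138), and Apobec1 (0.147). Msh6 followed Sox2 also in level, with 253, 58.4 and 276 RPKM in ESCs, NPs and TET TKO ESCs. For Sox1 they were Mfsd2a (0.250), Sall2 (0.274) and Zfp608 (0.287), and for Sox11 they were Tox3 (0.308), Pdzrn3 (0.321) and Celsr2 (0.321). For Sox15 they included Inpp5d (0.358) and the germline gene Tdrd12 (0.427). The distances are descriptions over libraries that share their groups, and no test was made.

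The pluripotency marker Zfp42, which encodes REX1, was the only one of the 8 such markers called in TET TKO ESCs, with 50.6 ± 11.02 RPKM against 304 ± 5.63 in ESCs (log2 -2.70 ± 0.16, edgeR adjusted p = 7.59e-05), beside a log2 fold change of -0.07 for Sox2. The mesoderm and fibroblast markers varied most among the NP libraries. Their summed levels were 30.3, 57.8 and 11.1 RPKM in replicates 1, 2 and 3, against 4.06 to 4.95 in ESCs. Of the 7, 5 were tested and 2, Col3a1 and Meox1, were called higher, against 12.4% of all genes tested. Both had means under 1 RPKM in ESCs (0.048 and 0.487). They were tested only through NPs, so they could only be called higher.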
